A study of Mus musculus with 58 samples.

Results

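Genes that mark astrocytes were followed through every count table of a mouse striatum series. They are 10 genes chosen by name, Slc1a2, Slc1a3, Glul, Aldh1l1, Aqp4, Gja1, Gfap, S100b, Sox9 and Fgfr3, among 54532 genes in the RNA-seq tables and 18411 genes in the tables of lysate RNA and ribosome footprints. All 10 were found in all 6 tables. The series compares mice of a 3g line, in which 1 copy each of Taok2, Sez6l2 and Mvp carries a premature stop codon made by CRISPR (del/+), with wild-type (wt) mice, and mice with a hemizygous 16p11.2 deletion (16p11.2 del/+), a segment that holds these genes, with wt mice of that line. RNA-seq was made from adult striatum, as 4 libraries from each sex of each genotype in either line (32 in all), and the strain given in the labels was B6129S for both lines. Lysate RNA and ribosome-protected fragments were sequenced from 1 lysate of striatum per mouse in 13 further males, 3 del/+ and 3 wt of the 3g line and 3 del/+ and 4 wt of the 16p11.2 line. Each library was taken as 1 mouse, and the animals of the lysate libraries are called by their labelled numbers (RNA-300 and so on). The 3g line was made by genome editing and both models carry their changes in every cell, so a change in an astrocyte gene could not be assigned to astrocytes.

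Total counts were between 11711099 and 65529807 in the RNA-seq libraries, between 15102576 and 19122488 in lysate RNA and between 342052 and 678130 in footprints, and the 10 genes took 0.513 to 0.698% of the RNA-seq counts. Levels are in CPM, counts scaled to a common library size, after TMM scaling over all libraries of an assay, which corrects for library size and composition. They are not divided by transcript length, so levels are compared between samples of 1 gene and not between genes. The targeted genes checked the labels. Taok2 was at 83.2 to 94.9 CPM in the 8 RNA-seq libraries of 16p11.2 del/+ mice and at 153 to 196 CPM in those of their wt mice, while in the 3g line Sez6l2 was at 189 to 225 CPM in del/+ and 274 to 336 CPM in wt libraries. Mvp was at 5.17 to 7.45 CPM in 3g del/+ and 7.2 to 8.84 CPM in 3g wt libraries, and Taok2, at 156 to 197 CPM and 176 to 182 CPM, overlapped between them. Among the RNA-seq libraries 3 stood apart. A position between the lines was computed over the 11385 genes that edgeR called between wt females of the lines (adjusted p under 0.05). It was set at 0 for the average 3g wt female library and at 1 for the average 16p11.2 one. The library labelled 3g wt male 17 lay at 0.837 (other 3g libraries -0.0834 to 0.179), and the library labelled 16p11.2 del/+ male 4 lay at 0.216 (other 16p11.2 libraries 0.806 to 1.26). Taok2 in this last library was at 89.1 CPM, as in the other deletion carriers. In 16p11.2 del/+ female 1 Xist was at 0.462 CPM, where the other 15 female libraries had at least 326 CPM, and the Y-linked gene Ddx3y was at 38.5 CPM. The RNA-seq genotype and line comparisons of the 10 genes and their correlations are given with and without those libraries of them that they include.

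Astrocytes clear glutamate and potassium from the space around synapses, move water at their endfeet on blood vessels, pass small molecules to one another through gap junctions and supply neurons with glutamine. In the striatum their processes contact the projection neurons that receive cortical and dopaminergic input. In tissue RNA, fewer astrocytes and less RNA per astrocyte cannot be told apart. The striatum was represented by a summed level of 10 striatal projection neuron genes (such as Drd1, Drd2 and Ppp1r1b) of 4816 to 8975 CPM in the RNA-seq libraries, and a sum of 6 cortical neuron genes was at 486 to 2545 CPM, with medians of 2068 CPM in the 16p11.2 and 766 CPM in the 3g line.

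Sequences upstream of the start were available for 8 of the 10 genes (RefSeq, GRCm38.p6), with 9 entries, since Fgfr3 has 2. Sox9 and Aqp4 had no entry. The 250 bases before the start of 3 genes are shown, because S100b differed most between the lines, Slc1a3 encodes one of the glutamate transporters, and Gfap is the gene by which astrocytes are most often named. Capitals mark a match to TTGGCA (the half-site of nuclear factor I proteins) in S100b and to TTCNNNGAA (the STAT motif) in Slc1a3. The S100b stretch is chr10:76253586-76253835 on the plus strand, the Slc1a3 stretch chr15:8710808-8711057 on the minus strand and the Gfap stretch chr11:102897201-102897450 on the minus strand.
S100b: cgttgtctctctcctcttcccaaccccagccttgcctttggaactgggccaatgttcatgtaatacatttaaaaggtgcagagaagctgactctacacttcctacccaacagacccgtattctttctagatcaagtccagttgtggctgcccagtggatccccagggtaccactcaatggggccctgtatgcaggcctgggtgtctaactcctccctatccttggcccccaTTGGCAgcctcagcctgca
Slc1a3: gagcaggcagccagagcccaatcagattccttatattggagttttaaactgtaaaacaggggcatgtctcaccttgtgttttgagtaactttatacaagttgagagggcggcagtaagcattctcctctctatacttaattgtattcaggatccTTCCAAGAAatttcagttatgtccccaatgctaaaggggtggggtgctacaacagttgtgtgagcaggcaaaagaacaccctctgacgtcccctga
Gfap: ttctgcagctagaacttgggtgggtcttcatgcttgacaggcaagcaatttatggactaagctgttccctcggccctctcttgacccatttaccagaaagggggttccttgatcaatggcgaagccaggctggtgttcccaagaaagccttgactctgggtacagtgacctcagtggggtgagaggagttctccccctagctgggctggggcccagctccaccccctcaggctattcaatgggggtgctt

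The TATA box motif TATAAA was searched on the given strand, and on both strands the nuclear factor I motif TTGGCA, the SOX motif ACAAAG and the STAT motif TTCNNNGAA. Among the 9 entries, TTGGCA was found only in S100b, 19 to 14 bases before the start, and TTCNNNGAA only in Slc1a3, 96 to 88 bases before it. Of all 32851 upstream stretches of this length, 7.59% held the TATA box motif, 12.3% the nuclear factor I motif, 16.5% the SOX motif and 7.02% the STAT motif. A match is a match of letters only.

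The glutamate transporters and the enzymes are given first. Slc1a2 (ENSMUSG00000005089, chromosome 2, 102658239 to 102790784), the main glutamate transporter of the forebrain, had a median of 3082 CPM over the 32 libraries, with a range of 2594 to 4421 CPM. Slc1a3 (ENSMUSG00000005360, chromosome 15, 8634124 to 8710807), the second astrocytic glutamate transporter, ranged from 463 to 710 CPM (median 515 CPM). Glul (ENSMUSG00000026473, chromosome 1, 153899929 to 153909723), glutamine synthetase, ranged from 1102 to 1694 CPM (median 1284 CPM). Aldh1l1 (ENSMUSG00000030088, chromosome 6, 90550768 to 90599171), a folate enzyme used as an astrocyte marker, ranged from 43.3 to 77.6 CPM (median 55.3 CPM). Within a group of 4 libraries the median coefficient of variation was 6.14% for Slc1a2, 6.99% for Slc1a3, 8.54% for Glul and 9.83% for Aldh1l1. For each of these 4 genes the library with the highest level belonged to the 16p11.2 line.

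Aqp4 (ENSMUSG00000024411, chromosome 18, 15389394 to 15410982), the water channel of the endfeet, ranged from 71.5 to 132 CPM (median 92.5 CPM). Gja1 (ENSMUSG00000050953, chromosome 10, 56377300 to 56390419), which encodes the gap junction protein connexin 43, ranged from 127 to 216 CPM (median 164 CPM). Gfap (ENSMUSG00000020932, chromosome 11, 102887336 to 102897200), an intermediate filament that rises in reactive astrocytes, ranged from 39.4 to 115 CPM (median 73.2 CPM), and with 18.4% had the largest median coefficient of variation within groups of the 10 genes. S100b (ENSMUSG00000033208, chromosome 10, 76253836 to 76261319), a calcium-binding protein also found in oligodendrocytes, ranged from 81.0 to 260.0 CPM (median 120.5 CPM). The transcription factor Sox9 (ENSMUSG00000000567, chromosome 11, 112782210 to 112787757) ranged from 11.9 to 26.7 CPM (median 15.5 CPM) and the growth factor receptor Fgfr3 (ENSMUSG00000054252, chromosome 5, 33721724 to 33737068) from 91.9 to 138 CPM (median 114 CPM). Coordinates are those of GRCm38.p6. Over the 32 libraries S100b spread furthest (coefficient of variation 36.1%), followed by Gfap (24%) and Sox9 (16.9%).

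**Figure D1:**
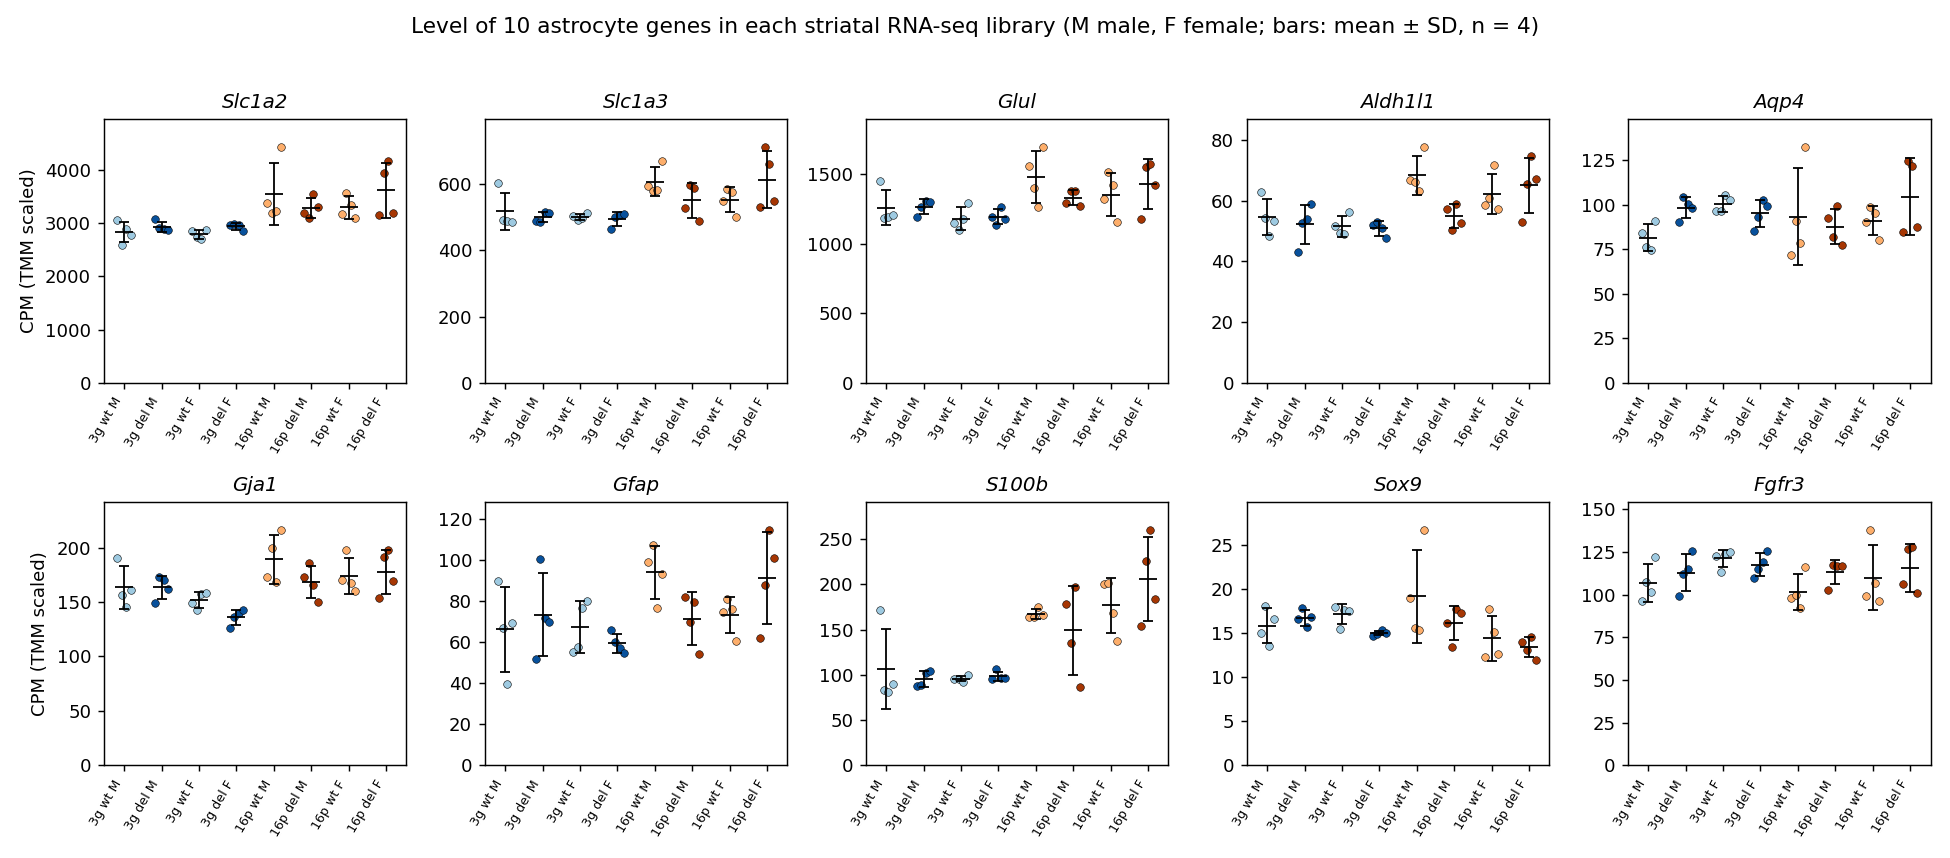
Level of each astrocyte gene (CPM, TMM scaled over the 32 RNA-seq libraries, each vertical axis from 0) in the 8 groups of 4 libraries. Points are libraries and bars the mean with its SD. S100b is at 81.0 to 106 CPM in all 3g libraries but one, which is at 172 CPM.

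The levels of the genes varied together from library to library within groups. After subtraction of the group means, the correlation of each gene with the mean of the other 9 over the 32 libraries was highest for Glul (Pearson's r = 0.845) and Gja1 (0.840) and lowest for Sox9 (0.427) and Fgfr3 (0.520). All 45 pairs correlated positively, with a median r of 0.557 and a range of 0.0288 to 0.795. The order rested on the 3 libraries that stood apart. Over the other 29 libraries Fgfr3 (0.793), Glul (0.780), Aqp4 (0.779) and Sox9 (0.760) were highest and Gfap (0.397) and S100b (0.494) lowest, and 43 of 45 pairs were positive (median r 0.509). The libraries share a scaling and differ in depth, so these values are a description. In 16p11.2 del/+ female 3 all 10 genes lay above their group means, by 0.12 to 0.36 on the log2 scale, and in 16p11.2 wt female 4 all 10 lay below, by values down to -0.35. In 16p11.2 del/+ female 1, the library with the male pattern, 9 of 10 lay below (median -0.24).

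**Figure D2:**
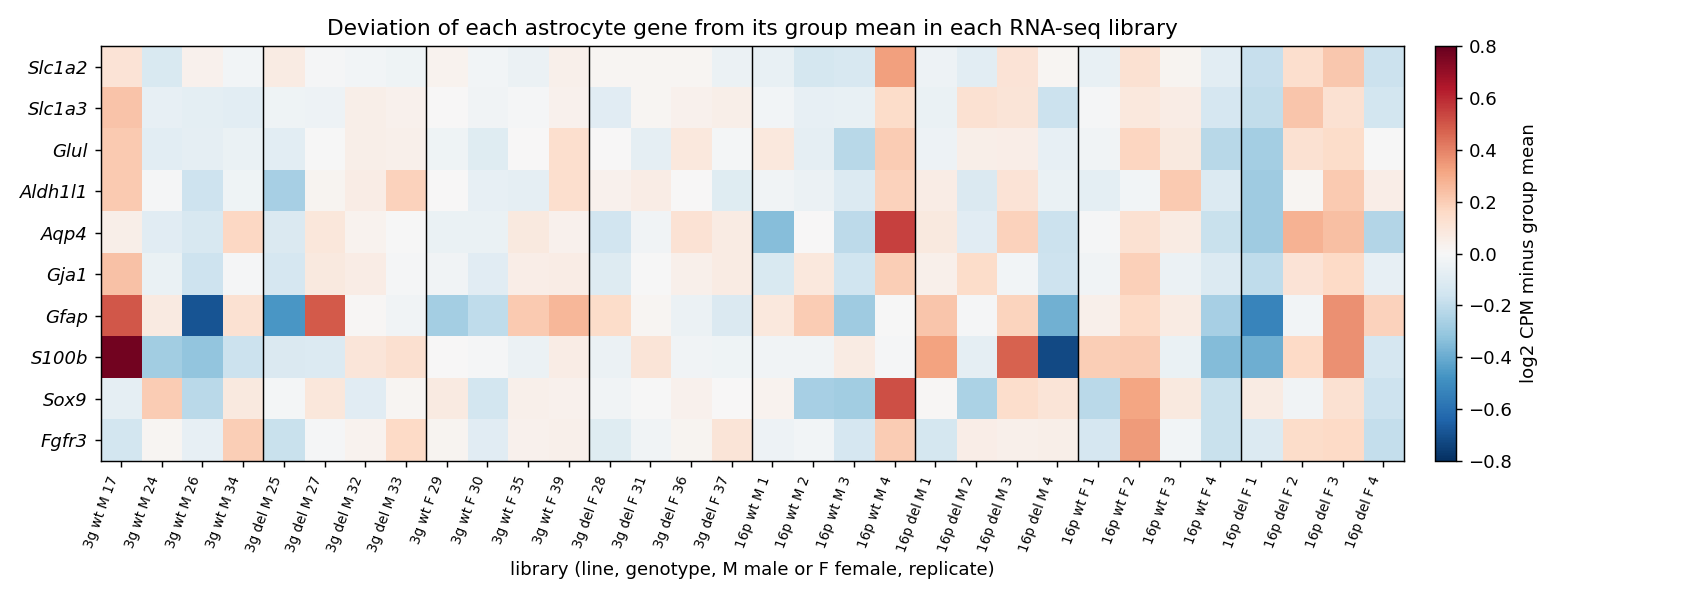
Log2 CPM of each astrocyte gene minus its group mean (colour scale, red above and blue below) in each of the 32 RNA-seq libraries, with lines between the groups of 4. Whole columns share a colour, as in 16p11.2 del/+ female 3, and S100b and Gfap have the darkest cells.

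The 10 genes outside the set that followed its mean most closely, of 11736 genes with a mean of at least 5 CPM, were Map4 (r = 0.898), Scd2 (0.896), Tmbim6 (0.886), Atp1b2 (0.875), Tmem229a (0.874), Sparcl1 (0.862), Slc39a12 (0.860), Ankrd40 (0.854), Mlc1 (0.852) and Cd81 (0.848). Over the 29 libraries 6 of these were still among the 10 closest, and the r of the 10 genes lay between 0.746 and 0.898. Atp1b2, Sparcl1 and Mlc1 were on lists of astrocyte genes drawn up for these comparisons. Of the means over 6 such lists, those of ion, water and adhesion genes (r = 0.942), receptors and secreted proteins (0.925) and transmitter and amino acid handling (0.836) followed the set more closely than microglial genes did (0.793). Those of lipid and energy metabolism (0.775), transcription factors and early glial genes (0.615) and reactive astrocyte genes (0.589) followed it less closely than the microglial genes. Oligodendrocyte genes had r = 0.595, striatal projection neuron genes 0.130 and endothelial and mural genes -0.032. Over the 29 libraries the value of oligodendrocyte genes was 0.268 and that of endothelial and mural genes 0.431, while the microglial value was 0.723 and the astrocyte lists lay between 0.586 and 0.912.

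None of the 10 genes passed the test of genotype in the 3g line. In males, edgeR's quasi-likelihood test called 0 of 10, where 0% of the 19081 genes tested were called, and in females 0 of 10 against 0.00526%. The edited gene Sez6l2 was itself not called in males (log2 fold change -0.57, standard error 0.083, edgeR adjusted p = 0.807). It was called in females (-0.49, standard error 0.044, edgeR adjusted p = 0.00336). An absent call in males thus does not show an absent change. Before adjustment, p was under 0.05 in edgeR for 1 gene in males (1.436% of all genes) and 2 in females (11.03% of all genes). With DESeq2 0 genes of the set were called in each sex. In males the lowest unadjusted p belonged to Aqp4. It was at 90.4, 104, 100.1 and 98.1 CPM in del/+ males and at 83.8, 76.3, 74.3 and 90.9 CPM in wt males. The groups nearly separated, with 1 wt library just above the lowest del/+ library, and Aqp4 had a log2 fold change of 0.28 (standard error 0.083, edgeR adjusted p = 0.974). In females Gja1 was at 127, 136, 140.0 and 142.3 CPM in del/+ and 149, 142.7, 158 and 158 CPM in wt libraries. Every del/+ value lay below every wt value, with the nearest just apart. Gja1 had a log2 fold change of -0.16 (standard error 0.046, edgeR adjusted p = 0.287). Sox9 was at 14.7 to 15.35 CPM in the del/+ females and 17.96, 15.445, 17.6 and 17.5 CPM in wt females, again just apart (log2 fold change -0.20, standard error 0.058, edgeR adjusted p = 0.299). How many of all genes separated without overlap is not given, here or in the comparisons below. The median log2 fold change over the 10 genes was 0.04 in males and -0.04 in females, beside medians near 0 over all genes. Without the library labelled 3g wt male 17, all 10 estimates in males were positive, from 0.017 to 0.34, and 0 were called. In females the estimate plus 2 standard errors stayed within 0.41 on the log2 scale for every gene, and in males within 0.65.

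In the 16p11.2 line most estimates ran in opposite directions in males and females, without reaching the threshold in either. In males 0 of 10 were called, beside 0.106% of 17957 genes, with 9 of 10 estimates negative and a median of -0.15. In females 0 of 10 were called, beside 0.144% of 18067 genes, with 9 of 10 estimates positive and a median of 0.10. Over all genes 49.1% of the estimates were positive in males and 49.6% in females. The 10 genes varied together from library to library. Here and in the other RNA-seq comparisons a count of their signs is therefore not 10 independent results. An unadjusted p under 0.05 was found by edgeR for 2 of the 10 in males (5.82% of all genes) and 0 in females (4.47%). Without the library labelled 16p11.2 del/+ female 1 it was found for 3 in females, and the share of all genes in that refit is not given here. DESeq2 called 0 of the 10 with all libraries. Gfap was at 82.2, 69.9, 79.6 and 54.1 CPM in del/+ and 99.0, 107.5, 76.7 and 93.0 CPM in wt males, with a log2 fold change of -0.39 (standard error 0.145, edgeR adjusted p = 0.742). In females Gfap was at 61.9, 87.9, 114.6 and 101 CPM in del/+ and 74.6, 81.0, 76.0 and 60.5 CPM in wt libraries, with a log2 fold change of 0.32 (standard error 0.16, edgeR adjusted p = 0.998). Both comparisons overlapped. In females the overlap rested on the value of 61.9 CPM, that of 16p11.2 del/+ female 1, the library with the male pattern. The other del/+ females lay above every wt female. Without that library the 10 estimates in females ran from -0.136 to 0.464, with 0 called. Aldh1l1 was at 57.2, 50.5, 59.1 and 52.8 CPM in del/+ males and 66.8, 66.1, 63.1 and 77.6 CPM in wt males, with every del/+ value below every wt value (log2 fold change -0.31, standard error 0.097, edgeR adjusted p = 0.742). In females it was at 53.1, 65.4, 74.9 and 67.2 CPM in del/+ and 58.8, 61.0, 71.7 and 57.4 CPM in wt libraries (log2 fold change 0.06, standard error 0.104).

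The test of the difference between the sexes in the 16p11.2 line called 0 of 10 genes and 0% of 18870 genes. Of the 10 interaction estimates (male minus female effect) 9 were negative, from -0.71 for Gfap to -0.13 for Sox9, and Fgfr3 was at 0.10. Over all genes 49.5% of these estimates were positive. The edgeR adjusted p of the 10 genes lay between 0.835 and 0.918. Before adjustment 2 of the 10 passed 0.05 in edgeR, beside 4.3% of all genes, and DESeq2 called 0 of the 10. Without the library labelled 16p11.2 del/+ female 1, the estimates in females had a median of 0.17 and those of the interaction a median of -0.32, with 0 called in each. Without 16p11.2 del/+ male 4, the male median was -0.12, 8 of 10 estimates were negative, and S100b moved from -0.16 to 0.03. In the 3g line the interaction of genotype and sex called 0 of 10 and 0% of 19830 genes. In edgeR 2 of the 10 had an unadjusted p under 0.05, beside 2.69% of all genes, and DESeq2 called 0. The largest estimate was that of Aqp4 (0.35, standard error 0.101, edgeR adjusted p = 0.901). Without the library labelled 3g wt male 17 all 10 estimates were positive, from 0.018 to 0.52 with the highest for Gfap, and 0 were called.

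The difference between the lines in the genotype effect was tested in males (0 of 10 called, beside 0.077% of 19488 genes) and in females (0 of 10, beside 0.128% of 19546 genes). The 3g effect minus the 16p11.2 effect was positive for 9 of 10 genes in males (median 0.17) and negative for 10 of 10 in females (median -0.15). Over all genes 42.7% of these estimates were positive in males and 50.8% in females. Before adjustment 0 of the 10 in males (1.72% of all genes) and 1 in females (6.82%) passed 0.05 in edgeR. DESeq2 called 0 of the 10 in both. In females without the library labelled 16p11.2 del/+ female 1, 4 genes passed 0.05 before adjustment, the median was -0.20 and 0 were called (edgeR adjusted p of 0.293 and above). For this refit too the share of all genes past 0.05 is not given here. Without both male libraries that lay with the other line, a choice made after the values were seen, 9 of 10 were positive in males with a median of 0.21 and 0 called. These estimates share the libraries of the comparisons above and are not independent of them.

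**Figure D3:**
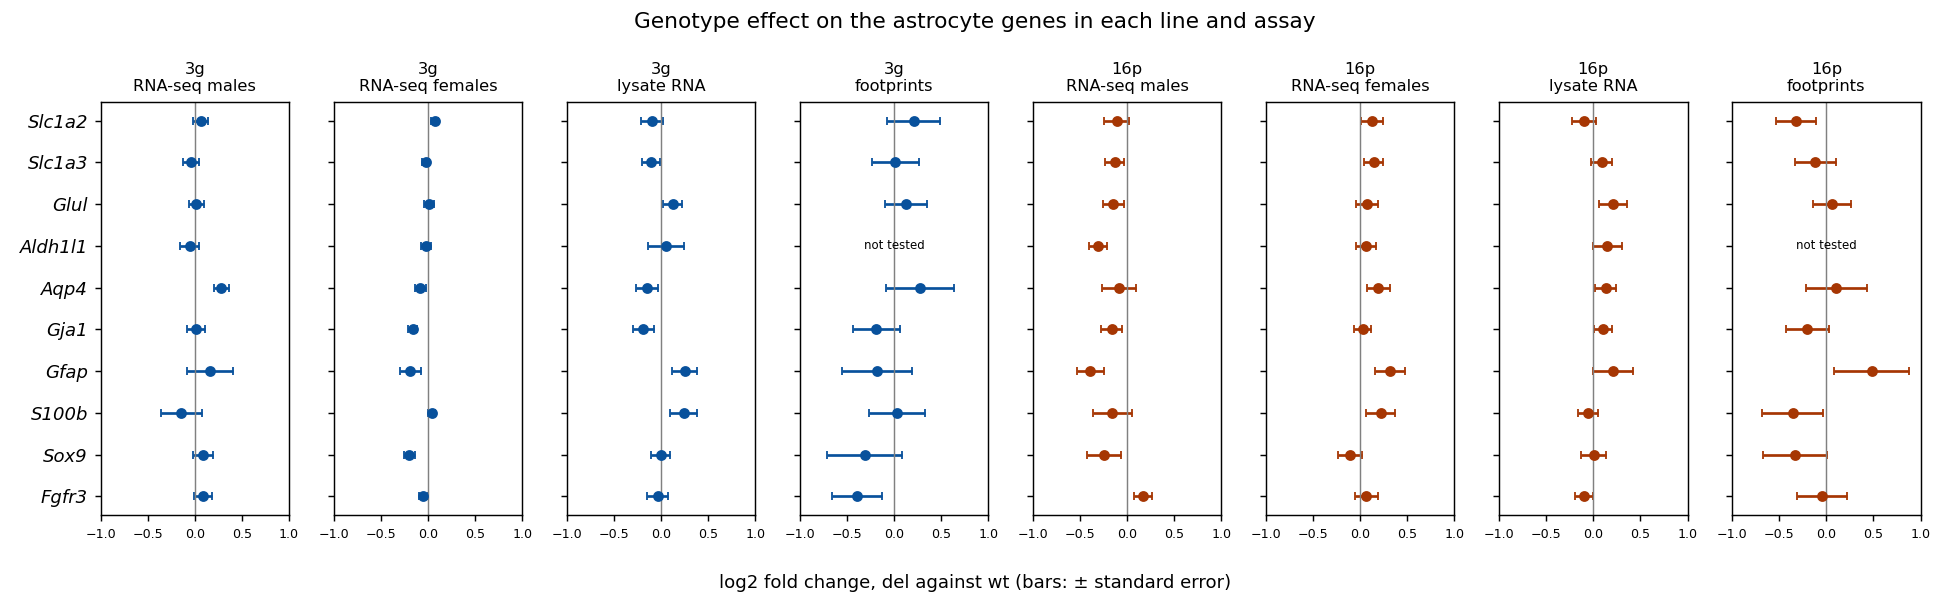
Log2 fold change of del/+ (labelled del) against wt for each astrocyte gene, with its standard error, in the RNA-seq of males and females, in lysate RNA and in footprints of each line. The 16p11.2 estimates of RNA-seq males lie mostly left of 0 and those of females mostly right, and Aldh1l1 was not tested in footprints.

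Lysate RNA came from other males and was processed apart, so its levels are given beside those of RNA-seq without a comparison. Over the 13 animals Slc1a2 was at 3395 to 4336 CPM in lysate RNA (median 4015 CPM) and at 2233 to 3576 CPM in footprints (median 2738 CPM). Glul was at 450 to 796 CPM in lysate RNA and 357 to 507 CPM in footprints, and Slc1a3 at 117 to 161 CPM and 142 to 351 CPM. These 3 genes handle glutamate. Of the membrane proteins, Gja1 was at 76 to 99.7 CPM in lysate RNA and 116 to 325 CPM in footprints, and Aqp4 at 64.5 to 93.2 CPM and 28.7 to 71.5 CPM. Fgfr3 was at 31 to 42.1 CPM in lysate RNA and 63.6 to 136 CPM in footprints, while Sox9 was at 37.3 to 57.8 CPM and 21.3 to 59.8 CPM. Gfap was at 17.6 to 42.9 CPM in lysate RNA and 20.3 to 65.1 CPM in footprints, and S100b at 47 to 80.1 CPM and 34.1 to 92.3 CPM. Within groups the median coefficient of variation was 4.91 to 15% in lysate RNA and 13.7 to 47% in footprints, with Aldh1l1 the most and Slc1a2 the least variable in footprints.

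Lysate RNA and footprints also gave no genotype call. In lysate RNA 0 of 10 genes were called in the 3g line, beside 0.0209% of 14378 genes, and 0 of 10 in the 16p11.2 line, beside 0.133% of 14330 genes. In footprints Aldh1l1, with 0 to 12 counts per library, fell under the filter on low counts, and 0 of the other 9 genes were called in the 3g line (0.0132% of 7553 genes) and in the 16p11.2 line (0.117% of 5964 genes). None of these 4 comparisons had a gene of the set at an unadjusted p under 0.05 in edgeR, and DESeq2 called 0 of the set. In the 3g line the edited gene Sez6l2 was not called in lysate RNA either (-0.53, standard error 0.094, edgeR adjusted p = 0.109). Nor was it called in 3g footprints (-0.85, standard error 0.224, edgeR adjusted p = 0.399). In the 16p11.2 line Sez6l2 was called in lysate RNA (edgeR adjusted p = 0.000983) but not in footprints (0.0671). Aldh1l1 had no footprint in the 16p11.2 wt animal RNA-499, which allows up to 6.49 CPM (a limit of 3 counts of the library total, counting error only). The lysate estimates ran from -0.19 (Gja1) to 0.25 (Gfap) in the 3g line and from -0.10 (Slc1a2) to 0.21 (Glul) in the 16p11.2 line. Gfap was at 20.8 to 26 CPM in lysate RNA of the 3 3g del/+ and 17.6 to 22.9 CPM in that of the 3 3g wt animals, which overlapped. The difference between the lines in the genotype effect was called for 0 of 10 genes in lysate RNA (0.122% of 14740 genes) and for 0 of 9 in footprints (0.169% of 7692 genes), with 0 genes past 0.05 before adjustment in edgeR and 0 called by DESeq2. With these depths the footprint estimates were broad. Standard errors were 0.222 to 0.399 in the 3g line and 0.202 to 0.400 in the 16p11.2 line, so differences of up to 1.11 and 1.28 on the log2 scale (estimate plus 2 standard errors) lay within reach of them.

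Wild-type mice of both lines differed in S100b and, by less, in other genes of the set. In wt females 4 genes were lower in the 3g than in the 16p11.2 line and 0 were higher, where 29.8% of 19013 genes were lower and 30.1% higher, 59.9% in all. S100b was at 95.6, 94.9, 92.3 and 99.3 CPM in 3g and at 137 to 201 CPM (median 184 CPM) in the 4 16p11.2 wt females. The values did not overlap, and S100b had a log2 fold change of -0.87 (standard error 0.106, edgeR adjusted p = 6.8e-05). Slc1a2 was at 2848, 2741, 2698 and 2866 CPM in 3g and at 3165, 3575, 3343 and 3103 CPM in 16p11.2 wt females, again apart (log2 fold change -0.23, standard error 0.069, edgeR adjusted p = 0.0155). Aldh1l1 was lower by the same measure (-0.26, standard error 0.074, edgeR adjusted p = 0.0122), and Gja1 was just past the threshold (-0.18, standard error 0.068, edgeR adjusted p = 0.0419) and lost its call when any of 5 libraries was left out, 16p11.2 wt female 1 or 2 or 3g wt female 29, 30 or 35. Slc1a2 lost its call without 3g wt female 30 (edgeR adjusted p = 0.051) or 35 (0.0554). Of the uncalled genes, Sox9 (0.27), Fgfr3 (0.16) and Aqp4 (0.15) had positive and Gfap (-0.10), Slc1a3 (-0.13) and Glul (-0.18) negative log2 fold changes. DESeq2 called 5 of the set, and 11607 of the 24840 genes with an adjusted p. The share of the set called by edgeR, 4 of 10, was below the 59.9% of all genes. With DESeq2 the share of the set was not below that of all genes.

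In wt males the same comparison depended on 1 library when edgeR was fitted on these 8 libraries alone. It then called 0 of 10 genes and 3 of 18561 genes (0.0162%). Before adjustment 4 of the 10 passed 0.05, near the share of all genes (36.1%). DESeq2 called S100b, and 3563 of the 19824 genes with an adjusted p. With all 32 RNA-seq libraries in the edgeR fit, male 17 included, 7939 genes were called, among them S100b, Aldh1l1, Slc1a2, Slc1a3 and Gfap. The share of all genes called in that fit is not given here, so these calls are not read as a result about the set. In the fit on wt males without the library labelled 3g wt male 17, 46.3% of 19093 genes were called. Among them were 5 of the set, all lower in the 3g line. They were S100b (log2 fold change -0.97, standard error 0.067, edgeR adjusted p = 0.000224), Gfap (-0.67), Aldh1l1 (-0.38), Slc1a3 (-0.30) and Gja1 (-0.28). S100b was at 172, 83.1, 81.0 and 89.4 CPM in 3g wt males, the first value being that of male 17, and at 164, 164, 175 and 166 CPM in 16p11.2 wt males. In 16p11.2 del/+ males it was at 178, 135, 197 and 86.3 CPM, the last value being that of male 4. Each of the 2 male libraries that lay with the other line thus had its S100b level. S100b was itself among the genes over which the position was computed, so its level is not a separate result. In the other 15 libraries of each line, S100b was at 81.0 to 106 CPM in the 3g and at 135 to 260.0 CPM in the 16p11.2 line. Slc1a2 did not follow S100b in this. It was at 2594 to 3069 CPM in all 16 3g libraries and at 3094 to 4421 CPM in all 16 16p11.2 libraries. In this gene the 2 male libraries thus kept to their labelled lines, which lay close together.

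**Figure D4:**
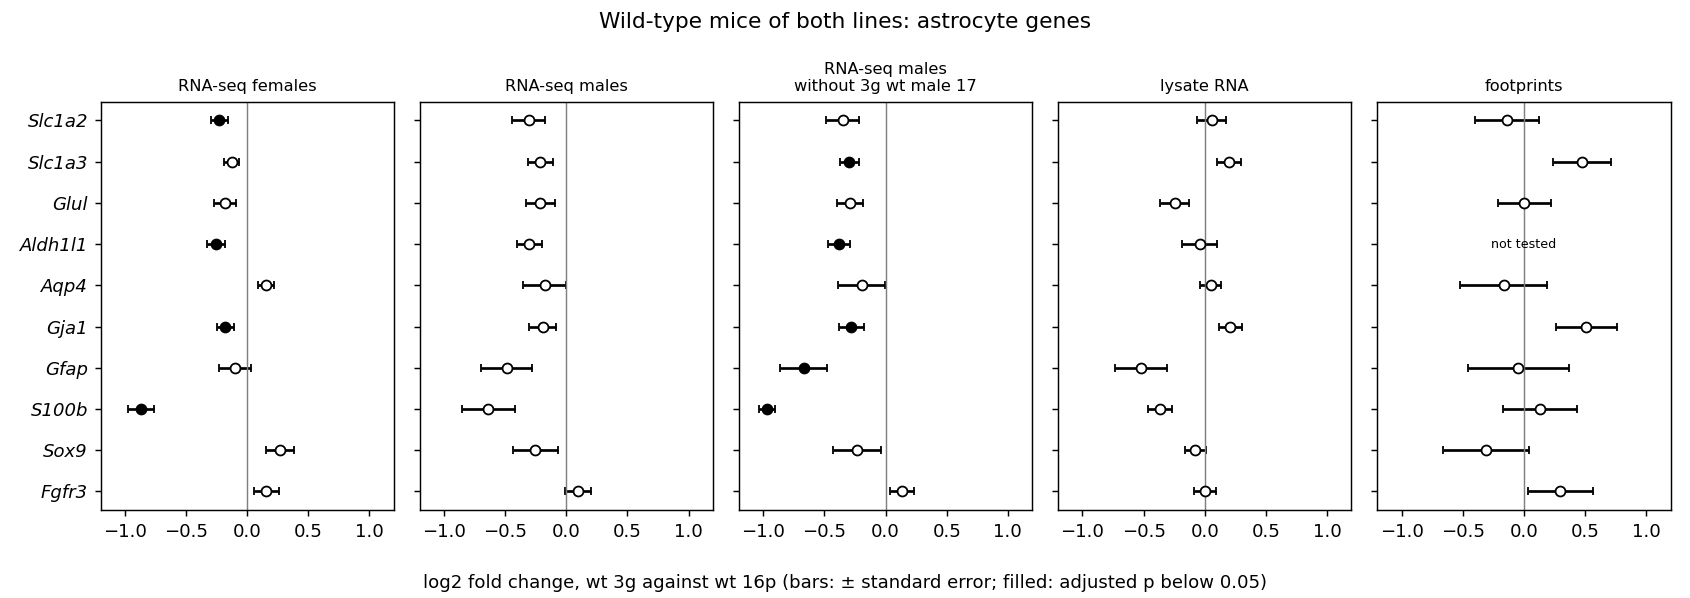
Log2 fold change of wt 3g against wt 16p11.2 mice (16p) for each astrocyte gene, with its standard error, in 5 comparisons. Filled points have an adjusted p under 0.05. S100b lies furthest left in the 3 RNA-seq panels, and no point is filled in lysate RNA or footprints.

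Genes of other cell types moved with the line in RNA-seq. In wt females 9 of 10 oligodendrocyte genes were lower in the 3g line (median log2 fold change -0.63), 6 of 6 cortical neuron genes were lower (median -1.89) and 10 of 10 endothelial and mural genes were higher (median 0.42), while the 10 astrocyte genes had a median of -0.15. The summed oligodendrocyte genes were at 6018 to 7830 CPM in 3g and 10320 to 13860 CPM in 16p11.2 wt females, and their part in the S100b difference was not tested. In lysate RNA the summed oligodendrocyte genes were at 3082 to 3955 CPM in the 3g and 3746 to 5336 CPM in the 16p11.2 animals, which overlapped. There, in lysate RNA, S100b was at 54.6, 57.1 and 50.1 CPM in 3g and 63.4, 66.5, 80.1 and 66.1 CPM in 16p11.2 wt males. The values were apart in the same direction, but the log2 fold change of -0.36 (standard error 0.101) was not called (edgeR adjusted p = 0.256). In lysate RNA 0 of 10 genes were called (0.0139% of 14417 genes). Before adjustment 3 of the 10 passed 0.05 in edgeR, beside 10.8% of all genes. In footprints 0 of 9 were called (0.241% of 6633 genes), with 0 at an unadjusted p under 0.05. DESeq2 called 0 of the set in either assay. In footprints S100b was at 38.3, 92.3 and 73.4 CPM in 3g and 65.6, 53.0, 50.6 and 79.1 CPM in 16p11.2 wt animals, which overlapped. The lines were deposited as separate tables, so line and preparation cannot be told apart.

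Ribosome footprints per RNA differed widely among the astrocyte genes, with the same sign in wt mice of both lines for 9 of 10 and the exception of Gfap (0.14 in the 3g and -0.26 in the 16p11.2 line, neither called). The ratios were not tested between the lines or between genes. The part of the transcript counted is not given, and its effect on these ratios was not tested. In 3g wt animals 2 genes were higher and 4 lower in footprints than in lysate RNA, where 20.6% of 13963 genes were higher and 23.7% lower (44.3% in all). In 16p11.2 wt animals 2 were higher and 5 lower, beside 21.4% and 25.2% of 13682 genes (46.6% in all). The median over all genes was -0.01 and -0.03, so the values are relative to a typical gene. DESeq2 called 6 of the set in each line, beside 7216 of 16490 and 7436 of 17266 genes with an adjusted p. On its scale that median was 0.31 and 0.33. The 6 genes called in the 3g line were also called in the 16p11.2 line, each in the same direction. Aqp4 and Slc1a2 had the fewest footprints per RNA. For Aqp4 the log2 ratio was -1.40 (standard error 0.253, edgeR adjusted p = 0.000634) in 3g and -1.12 (standard error 0.175, edgeR adjusted p = 2.71e-05) in 16p11.2 wt mice. For Slc1a2 it was -1.15 (standard error 0.203) and -0.89 (standard error 0.155). Glul was lower in both, at -0.68 (standard error 0.182) and -0.87 (standard error 0.151).

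Sox9 was at -0.75 (standard error 0.255, edgeR adjusted p = 0.0286) in 3g and -0.45 (standard error 0.172, edgeR adjusted p = 0.0357) in 16p11.2 wt mice. In the 16p11.2 line it lost its call with the animal as a replicate block (adjusted p = 0.0532), with RLE scaling (0.0686), with DESeq2 (0.071) and without RNA-498, RNA-499 or RNA-517 (0.0725 to 0.142), and in the 3g line without RNA-301 (0.182) or RNA-318 (0.234). S100b passed the threshold in the 16p11.2 line, at -0.61 (standard error 0.177, edgeR adjusted p = 0.00783) against -0.18 (standard error 0.226) in the 3g line, and the difference between these values was not tested. That call was lost without animal RNA-505 (edgeR adjusted p = 0.0754). The genes with more footprints per RNA were Fgfr3, at 0.99 (standard error 0.193) in 3g and 0.77 (standard error 0.171) in 16p11.2 wt mice, and Gja1, at 0.87 (standard error 0.212) and 0.64 (standard error 0.154). Gja1 lost its call in the 3g line without RNA-301 (edgeR adjusted p = 0.0569), and Glul in that line without RNA-318 (0.0931). Slc1a3, Gfap and Aldh1l1 were not called in either line. Of the glutamate transporters, Slc1a2 was thus called lower in both lines. Slc1a3, not called, was at 0.25 (standard error 0.210) in 3g and 0.04 (standard error 0.150) in 16p11.2 wt mice. The difference between the genes was not tested.

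Single animals showed the same spread. With footprint and lysate RNA libraries scaled together, the log2 ratio of footprint to RNA CPM of Slc1a2 was -1.42, -0.90 and -1.23 in 3g wt animals RNA-300, RNA-301 and RNA-318 and -1.15, -0.88, -0.82 and -1.03 in 16p11.2 wt animals RNA-498, RNA-499, RNA-505 and RNA-517. It rested on 876 to 1502 footprints in these animals. For Aqp4 it was -2.0, -0.79 and -1.87 in 3g wt and -1.36, -1.03, -1.64 and -0.94 in 16p11.2 wt animals, on 12 to 31 footprints. Fgfr3 was at 1.31, 0.52 and 0.94 in 3g wt and 0.34, 0.19, 0.93 and 1.08 in 16p11.2 wt animals, on 24 to 57 footprints. Over all 13 animals, del/+ included, Slc1a2, Glul, Aqp4 and Sox9 were negative in 13 of 13, and Fgfr3 was positive in 13 of 13. Gja1 was positive in 11 of 13, S100b negative in 11 of 13, Gfap negative in 10 of 13 and Slc1a3 positive in 7 of 13. Aldh1l1 was positive in 10 of the 12 animals with a footprint (median 0.59), on at most 12 footprints.

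**Figure D5:**
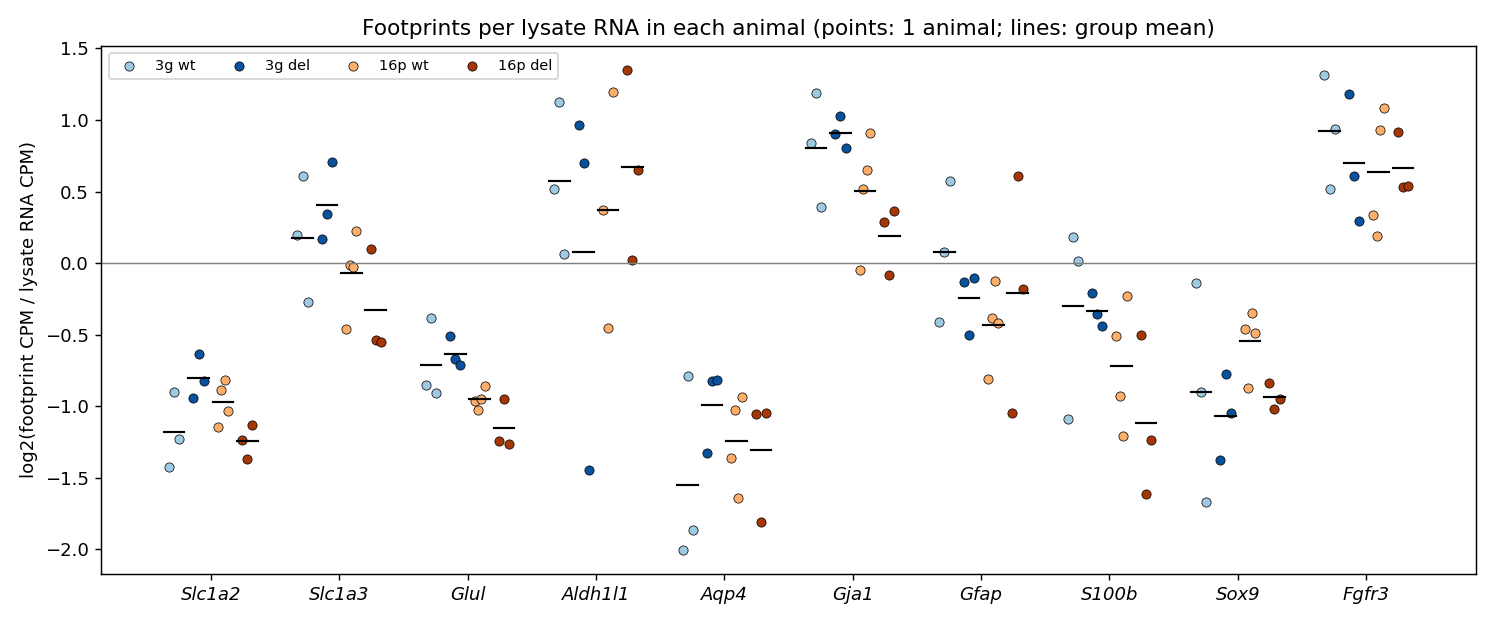
Log2 ratio of footprint CPM to lysate RNA CPM of each astrocyte gene in each of 13 animals (points, coloured by line and genotype), with group means as lines and both assays scaled together. Slc1a2, Glul, Aqp4 and Sox9 lie below 0 and Fgfr3 above 0 in every animal, and 1 animal with no Aldh1l1 footprint is not shown.

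None of the 10 genes passed the test of genotype on footprints per RNA. The interaction of genotype and assay called 0 of 10 in the 3g line (0% of 15137 genes) and 0 of 10 in the 16p11.2 line (0.00664% of 15071 genes), with 0 at an unadjusted p under 0.05 in edgeR and 0 called by DESeq2 in each. Estimates ran from -0.50 (Aldh1l1) to 0.46 (Aqp4) in the 3g line and from -0.42 (Sox9) to 0.48 (Aldh1l1) in the 16p11.2 line, with standard errors of 0.214 to 0.629. For Slc1a2, the gene with the most footprints, the estimate was 0.34 (standard error 0.266) in the 3g and -0.30 (standard error 0.215) in the 16p11.2 line. A change smaller than these errors was not detectable at this depth. Changes well above the standard error could also go uncalled, as that of Sez6l2 in 3g footprints did.

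The same comparisons were made for 99 further astrocyte genes in 6 lists by function. No gene of these lists was called in any of the 10 genotype comparisons. In wt females 26 of 95 tested were higher and 30 lower in the 3g line, close to the shares of all genes (30.1% higher and 29.8% lower). Of the ion, water and adhesion genes 1 was higher and 7 of 12 lower, with the potassium channel gene Kcnj10 at -0.56 and the claudin gene Cldn10 at -0.57 among the lower and the connexin gene Gjb2 at 0.51 as the higher. Of the reactive astrocyte genes 9 of 26 were higher, near the share of all genes, and 2 lower, with Clcf1 at 1.82 and Tgm1 at 1.16, while S100a10 was at -1.14 and Cd44 at -0.57. In 3g wt mice 31 of 87 genes had more and 11 fewer footprints per RNA than the typical gene, and in 16p11.2 wt mice 30 of 85 had more and 14 fewer, where 20.6 and 21.4% of all genes had more and 23.7 and 25.2% fewer. The per-list counts that follow are read against the same shares. Lipid and energy genes had 8 of 15 higher in the 3g line, with Apoe at 2.59 and Clu at 2.59, both secreted lipid carriers, and at 2.19 and 2.34 in the 16p11.2 line. Ppp1r3c of the same list was called lower, at -2.17 in the 3g and -2.72 in the 16p11.2 line. Transcription factors and early glial genes had 0 of 14 higher and 5 lower in the 3g line and 0 higher and 7 lower in the 16p11.2 line, with Nfia at -2.27 and -1.83. The lists were chosen with results of these data known and are given as counts.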

How the data were processed

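RNA-seq of striatum (32 libraries) and lysate RNA with ribosome footprints (13 animals, males) were deposited as gene counts, whole numbers that were not normalized. Per the labels' processing notes the authors used HTSeq and mm10 for RNA-seq and Bowtie2 and mm39 for lysate RNA and footprints. Their versions, the annotation, the strand setting and the part of the transcript counted are not given in the sources used here. The study names a ribosomal RNA depletion kit, while the labels name polyA RNA. Lysate RNA and footprints of an animal came from 1 lysate.

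Counts were tested with edgeR 4.0.16 (R 4.3.3, limma 3.58.1), with TMM scaling, filterByExpr and quasi-likelihood tests. P-values were adjusted by Benjamini-Hochberg over all genes tested, with a threshold of 0.05, and a standard error is the log2 fold change divided by the square root of its F. Each comparison was fitted on the libraries it compares. DESeq2 1.42.0, other scaling, no filter, each library left out and a replicate block were alternatives, and leaving out both male libraries that stood apart, or all 3 for the correlations, was added after the data were seen. All 10 genes are reported, and further genes were named as the 2 with the largest called fold changes of an astrocyte list in each direction (examples of these are given) and as the 10 most correlated with the set. The scripts were tested on simulated data. The members, lists and tests were chosen with earlier results of these data known. Where nothing says that libraries came from separate animals, p-values measure the spread between libraries.

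Footprint and lysate RNA libraries of an animal share that lysate, and the deviations of the pair from their group means correlated in all 13 animals (r = 0.0722 to 0.229). The limit printed beside a count of 0 covers counting error only, while standard errors include the spread between libraries. Sequences were taken from RefSeq (GRCm38.p6), and coordinates are of that build, not of the builds of the counts.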

Additional observations from a re-analysis of the deposited data

Results flagged for a closer look

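Each gene was checked in every group of 4 libraries for a highest or lowest value far from the other 3, by the gap to the nearest value divided by the range of the group. Of 100 groups 10 passed Dixon's limit, and chance gives about 1 in 20. The library labelled 3g wt male 17 stood apart in 3 of them. Slc1a3 was at 602.6 CPM there (others 485.4 to 491.9 CPM, ratio 0.944), S100b at 172.1 CPM (others 81.0 to 89.4 CPM, ratio 0.907) and Glul at 1451 CPM (others 1183 to 1210 CPM, ratio 0.9). In the same library the position between the lines was 0.837, near the 16p11.2 libraries, and Taok2 was in the range of other wt libraries.

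Slc1a2 was at 4421 CPM in 16p11.2 wt male 4 (others 3189 to 3381 CPM, ratio 0.844) and at 2844 CPM in 3g del/+ female 37 (others 2965 to 2976 CPM, ratio 0.919). In 16p11.2 wt animals it was at 3395 CPM in lysate RNA of RNA-499 (others 4070 to 4166 CPM, ratio 0.876) and at 3452 CPM in footprints of RIBO-505 (others 2738 to 2789 CPM, ratio 0.929). Slc1a3 was at 116.6 CPM in lysate RNA of RNA-499 (others 140.8 to 143.8 CPM, ratio 0.889). Fgfr3 was at 103 CPM in 16p11.2 del/+ male 1 (others 116.6 to 117.5 CPM, ratio 0.939) and S100b at 105.9 CPM in 3g del/+ female 31 (others 95.4 to 96.5 CPM, ratio 0.902).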

How the results depend on the processing

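Over all alternatives 2734 values of single genes were computed. A call was lost in 20 and gained in 19 of them, none that was called under either setting changed sign, and 164 uncalled values did. In the genotype comparisons and their differences by sex and line the number of genes of the set called was 0 under every alternative. For the wt line difference in males it was 1 with DESeq2 and 5 with all 32 RNA-seq libraries in the fit, and it ranged from 0 to 5 when libraries were left out, with 5 without 3g wt male 17. In females it ranged from 2 (without 3g wt female 35) to 6 (without 16p11.2 wt female 2 or 4). In that comparison Gja1 also lost its call without the filter on low counts (edgeR adjusted p = 0.0615) and with all 32 libraries in the fit (0.08), Sox9 gained one without the filter (0.0347) and Slc1a3 with DESeq2 (0.0421).

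With the animal as a replicate block, 6 genes of the set were called in footprints against RNA in each line. The call lost was that of Sox9 in the 16p11.2 line (log2 ratio -0.45, edgeR adjusted p = 0.0532). The numbers shared by 16p11.2 del/+ and wt RNA-seq libraries did not pair them (r = -0.267 to 0.135 in males and -0.0809 to 0.173 in females). With the number as a replicate block 0 genes of the set were called in either sex and in their difference. Under plain library totals 29 of 160 group means moved by more than 1 SD. Footprint depth limits the footprint comparisons, with 0 to 12 counts of Aldh1l1, 7 to 25 of Gfap and 9 to 31 of Sox9 per library.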
